A study of Homo sapiens with 12 samples.

Results

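The respiratory chain and ATP synthase subunit genes were followed in neuroblastoma cells treated with STM2457, a small-molecule inhibitor of METTL3, the enzyme that writes N6-methyladenosine onto messenger RNA. Members were chosen by gene name alone: the mitochondrially encoded genes named MT-ND, MT-CO, MT-CYB and MT-ATP, and the nuclear genes named NDUFA, NDUFB, NDUFC, NDUFS or NDUFV with a number, SDHA to SDHD, UQCR, CYC1, COX4 to COX8, and ATP5F, ATP5M or ATP5P. The rule took 102 of the 19923 genes counted, 13 mitochondrially encoded and 89 nuclear. Of the nuclear records, 2 (NDUFC2-KCTD14 and ATP5MF-PTCD1) join a subunit gene to its neighbour and share nearly their whole exon length with other counted genes; they had too few reads to be tested and are set aside, which leaves 87. By complex, the nuclear and mitochondrially encoded members numbered 36 and 7 for complex I, 4 and 0 for complex II, 10 and 1 for complex III, 19 and 3 for complex IV, and 18 and 2 for complex V. NDUFA4 and NDUFA4L2 keep their historical names but are counted with complex IV, where the NDUFA4 protein is found.

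The cells belong to established human neuroblastoma lines, NGP and SK-N-BE2, that the labels describe as MYCN-amplified and of wild-type genotype. Each line was kept for 6 days with the vehicle DMSO or with STM2457, at 12 µM in SK-N-BE2 and at 1 µM in NGP, and each of the 4 groups had 3 replicates. Each line is a single line grown in culture, and nothing says that replicates came from separate cultures, so p-values measure the spread between these libraries, which may be technical. Line, dose and sequencing run changed together, so they cannot be told apart in any comparison between the lines.

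Oxidative phosphorylation uses 5 complexes of the inner mitochondrial membrane. Complexes I and II pass electrons from NADH and succinate to coenzyme Q, complex III passes them on to cytochrome c, and complex IV hands them to oxygen; complexes I, III and IV pump protons, and complex V (ATP synthase) makes ATP as protons return. The mitochondrial genome encodes core membrane subunits of complexes I, III, IV and V as long polycistronic RNAs that are cut at the tRNAs and polyadenylated, whereas all subunits of complex II and the remaining subunits of the others are made from nuclear genes and imported.

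The 3′ ends of the mitochondrial reading frames are shown because the libraries were made from polyadenylated RNA and because the SK-N-BE2 responses described later fell on particular genes of this genome. In 6 of the 13 genes the annotated frame stops 1 or 2 bases into the stop codon, and the added poly(A) tail supplies the rest. The last 15 bases of those 6 (GRCh38, plus strand; MT-ND1 at chrM:4248-4262, MT-ND2 at chrM:5497-5511, MT-CO3 at chrM:9976-9990, MT-ND3 at chrM:10390-10404, MT-ND4 at chrM:12123-12137, MT-CYB at chrM:15873-15887) have the bases after the last whole codon in capitals.
MT-ND1: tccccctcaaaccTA
MT-ND2: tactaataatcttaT
MT-CO3: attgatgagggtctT
MT-ND3: tagactgaaccgaaT
MT-ND4: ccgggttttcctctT
MT-CYB: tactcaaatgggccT
By comparison MT-CO1 at chrM:7431-7445 and MT-CO2 at chrM:8255-8269, the genes with the highest SK-N-BE2 responses among the 13, end in a whole codon, again in capitals.
MT-CO1: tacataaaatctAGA
MT-CO2: gtatttaccctaTAG

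Overlaps matter for the counts. MT-ATP8 and MT-ATP6 are read from 1 transcript in different frames and share 46 bases at chrM:8527-8572, and MT-ND4L and MT-ND4 share 7 bases at chrM:10760-10766. A read lying across both genes was not assigned to either. The shared bases are 22.2% of the length of MT-ATP8, 6.90% of MT-ATP6 (with 1 base shared with MT-CO3) and 2.36% of MT-ND4L. Reads that only reach into a shared stretch were lost too, so a larger part of each gene is affected. MT-ND5 (to chrM:14148) and MT-ND6 (from chrM:14149) abut, and counting ignored strand, so reads across that junction were also not assigned. The overlaps of MT-ATP8 with MT-ATP6 and of MT-ND4L with MT-ND4 are shown with 10 flanking bases on each side and the shared bases in capitals.
MT-ATP8 and MT-ATP6: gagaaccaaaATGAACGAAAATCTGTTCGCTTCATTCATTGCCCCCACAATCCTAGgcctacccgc
MT-ND4L and MT-ND4: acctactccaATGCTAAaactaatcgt
Nuclear copies of mitochondrial DNA also remove reads, since reads that map to several places were not counted. Of the 100-base windows of each gene, 27.9% of those of MT-CO1, 26.1% of those of MT-ND2, 11.9% of those of MT-ATP6 and 10.97% of those of MT-ND1 have an identical copy in an annotated nuclear pseudogene of a mitochondrial gene, against 4.67% for MT-CO3, 2.39% for MT-CO2 and 0 for MT-ND3, MT-ND4L, MT-ND4, MT-ND5, MT-ND6, MT-CYB and MT-ATP8. Of the 50-base windows the share was 49.5% for MT-CO1, 46.68% for MT-ATP6, 43.61% for MT-ND2, 30.88% for MT-CO3, 28.98% for MT-CO2 and 22.05% for MT-ND1. It was 17.86% for MT-ND6, 8.23% for MT-ATP8, 4.76% for MT-ND5, 3.54% for MT-ND4 and 1.19% for MT-CYB, and 0 only for MT-ND3 and MT-ND4L.

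Many nuclear respiratory genes are known to be bound upstream of their start by NRF1 and by the ETS-family factor GABP. RefSeq promoters (GRCh38.p14) matched 68 of the 87 nuclear subunits by symbol. In the 250 bases before the start, the NRF1-type word GCGCATGC occurred on either strand in 12 of the 68 (17.6%) and in 2.81% of all 27305 promoters of the table. The ETS-type word CCGGAAG occurred in 17 (25%) and in 8.82%. These matches are descriptions of letters and not binding sites. The last 150 bases before the start are shown for a member that fell in SK-N-BE2 with both words (COX5B, chr2:97645912-97646061, plus strand), another such member whose response differed between the lines (SDHD, chr11:112086723-112086872, plus strand), and a member with the opposite difference and the ETS-type word only (UQCR11, chr19:1605463-1605612, minus strand), with the words in capitals. The SDHD run of 10 capitals holds the NRF1-type word on both strands, overlapping.
COX5B: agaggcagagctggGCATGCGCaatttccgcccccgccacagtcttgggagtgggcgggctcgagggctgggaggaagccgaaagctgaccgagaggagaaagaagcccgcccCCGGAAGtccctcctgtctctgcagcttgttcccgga
SDHD: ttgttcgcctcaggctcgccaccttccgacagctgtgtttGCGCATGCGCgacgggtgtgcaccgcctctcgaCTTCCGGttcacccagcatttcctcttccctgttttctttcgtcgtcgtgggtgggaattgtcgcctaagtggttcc
UQCR11: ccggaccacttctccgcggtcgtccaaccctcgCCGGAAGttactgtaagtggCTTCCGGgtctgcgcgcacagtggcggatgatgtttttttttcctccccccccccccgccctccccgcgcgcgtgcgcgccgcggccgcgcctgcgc
Among the matched members called lower in SK-N-BE2, 6 of 23 held the NRF1-type word and 5 the ETS-type word, among those not called there 6 of 38 and 10 did, and among those called higher 0 of 4 and 2 did. For NGP the counts were 2 and 1 of 9 called higher, and 10 and 16 of 56 not called.

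Libraries held 47242379 to 58159937 counted reads. In NGP, DMSO replicate 1 stood apart: the median nuclear subunit lay 0.41 above the mean of the DMSO libraries on the log2(CPM + 1) scale, against -0.22 and -0.15 in the other DMSO libraries, and the biological coefficient of variation of the NGP fit was 0.155 with it and 0.0944 without it. NGP counts of subunits, and the named subunits whose call changes without it, are given both ways. Since it was set apart in part by the level of these same members, leaving it out lowers their typical control level. Calls of a rise without it are therefore no independent support for a rise. Of the sympathoadrenal markers, PHOX2A, HAND2, GATA3, ISL1, DBH and MYCN had group means of 13.5 to 4434 CPM across both lines. TH, the rate-limiting enzyme of catecholamine synthesis, was near 0 in NGP (mean 0.512 CPM with DMSO, where CPM is reads scaled by TMM library size) and at 234 CPM in SK-N-BE2. Leukocyte, endothelial, epithelial and Schwann markers stayed under 10 CPM in every group.

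Mitochondrially encoded mRNAs took a larger share of reads in NGP with STM2457 and no distinct share in SK-N-BE2. In NGP the 13 mRNAs held 3.64, 3.05 and 2.78% of counted reads in the DMSO libraries and 7.16, 6.46 and 6.82% in the STM2457 libraries, so that every treated library lay above every control, and the means were 3.15% ± 0.439 and 6.81% ± 0.350 (SD, n = 3 each), a ratio of 2.16. In SK-N-BE2 the shares were 11.3, 8.43 and 9.98% with DMSO and 8.4, 8.23 and 10.3% with STM2457. These overlapped, with means of 9.92% ± 1.46 and 8.96% ± 1.13 (SD, n = 3 each) and a ratio of 0.904. The untreated NGP libraries lay below the untreated SK-N-BE2 libraries. The nuclear subunits together held far fewer reads: 0.998, 0.745 and 0.775% (DMSO) and 0.893, 0.878 and 0.882% (STM2457) in NGP, and 0.851, 1.06 and 0.945% and 0.851, 0.851 and 0.872% in SK-N-BE2. In both lines the nuclear shares of the groups overlapped, and the ratios of means were 1.05 in NGP and 0.902 in SK-N-BE2. The log2 ratio of mitochondrial to nuclear subunit reads was 1.91 ± 0.103 with DMSO and 2.94 ± 0.0622 with STM2457 in NGP, and 3.38 ± 0.371 and 3.38 ± 0.156 in SK-N-BE2 (SD, n = 3 each). These are shares of reads with no spike-in, and in bulk samples fewer cells of a type and less RNA per cell cannot be told apart.

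**Figure D1:**
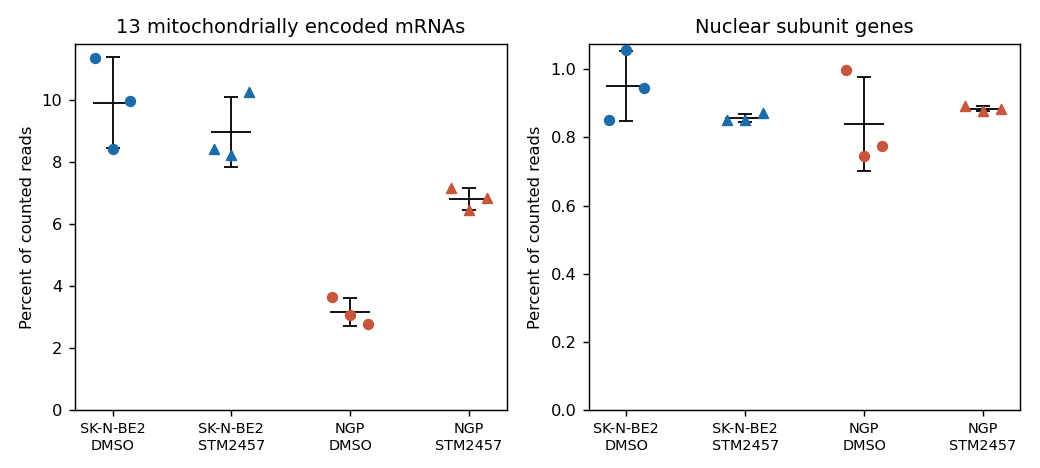
Percent of counted reads from the 13 mitochondrially encoded mRNAs (left) and from the 87 nuclear subunit genes (right) in each library; circles are DMSO and triangles STM2457 libraries, and the bars are the mean and SD of 3 replicates. The NGP STM2457 libraries sit at 6.46% to 7.16% mitochondrial reads, all above the NGP DMSO libraries at 2.78% to 3.64%, while the nuclear shares overlap in both lines.

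Every mitochondrially encoded mRNA rose in NGP. All 13 were called higher (edgeR, adjusted p under 0.05), with log2 fold changes from 0.55 (MT-ND1) to 1.53 (MT-ND4L) and a median of 1.2, against a median of -0.03 over the 13610 genes tested, of which 41.7% were called and 19.4% called higher. For all 13 the STM2457 libraries lay above all DMSO libraries, as 28.4% of genes tested did. In what follows an unnamed value before an adjusted p is an edgeR log2 fold change, and where 2 sets of 3 libraries are given together DMSO comes before STM2457. Among complex I subunits, MT-ND5, part of the proton-pumping membrane arm, went from 1132, 1169 and 949.6 CPM in the DMSO libraries to 3044, 2617 and 2877 CPM in the STM2457 libraries (edgeR log2 change 1.37 with SE 0.12, adjusted p = 7.38e-05). MT-ND4, another pump-like subunit, went from 4658, 4306 and 3735 to 10590, 9476 and 10080 CPM (edgeR log2 change 1.22 with SE 0.12, adjusted p = 0.000118). MT-ND1 and MT-ND3, which lie near the junction with the peripheral arm, had the smallest rises, 0.55 (adjusted p = 0.00591) and 0.58 (adjusted p = 0.0354). The MT-ND3 call was lost when any single NGP library other than DMSO replicate 1 was left out (adjusted p = 0.0724 to 0.125), and with the GC trend of each library removed (0.0963). MT-CYB, the only mitochondrially encoded subunit of complex III, went from 2943, 2582 and 2214 to 6854, 5499 and 6498 CPM (edgeR log2 change 1.26 with SE 0.14, adjusted p = 0.00024).

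The 3 core subunits of complex IV all rose in NGP. MT-CO1, which holds the oxygen-binding site, went from 6818, 5875 and 5446 CPM in the DMSO libraries to 16150, 14270 and 15280 CPM in the STM2457 libraries (edgeR log2 change 1.31 with SE 0.12, adjusted p = 9.58e-05). MT-CO2, which accepts electrons from cytochrome c, and MT-CO3 rose by 1.2 ± 0.21 and 0.95 ± 0.19 (SE), with adjusted p = 0.00266 and 0.00427. In complex V, MT-ATP6, which forms the proton path beside the rotor ring, went from 1848, 1220 and 1211 to 3281, 3289 and 3120 CPM (edgeR log2 change 1.15 with SE 0.17, adjusted p = 0.000953). MT-ATP8, read from the same transcript, had 193, 267 and 263 CPM with DMSO and 681, 738 and 656 CPM with STM2457 (1.5, adjusted p = 0.000104). MT-ND6 is the only member encoded on the other strand and is known to lack a poly(A) tail. Counting ignored strand, so reads at MT-ND6 can come from RNA of either strand. It went from 468, 276 and 253 to 734, 736 and 706 CPM (1.1, adjusted p = 0.00391).

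In SK-N-BE2 the mitochondrially encoded mRNAs did not move together. Of 13, 4 were called lower (MT-ND1, MT-ND2, MT-ND3 and MT-CO3), 1 was called higher (MT-CO2) and 8 were not called, with a median log2 fold change of -0.25 against -0.02 over the 14013 genes tested, of which 54.7% were called (26.9% higher and 27.8% lower). MT-ND2 went from 11930, 10110 and 11650 CPM in the DMSO libraries to 5392, 5628 and 6527 CPM in the STM2457 libraries (edgeR log2 change -0.98 with SE 0.12, adjusted p = 1.5e-05). MT-ND1 went from 11060, 8347 and 10330 to 5711, 5367 and 6814 CPM (edgeR log2 change -0.77 with SE 0.13, adjusted p = 0.000282). Both genes lie first among the mRNAs after the ribosomal RNAs, and their treated and control libraries did not overlap. MT-ND3 had 1544, 2012 and 2186 CPM with DMSO and 1042, 1075 and 1346 CPM with STM2457 (-0.77, adjusted p = 0.000398). MT-CO3 had 18200, 15610 and 17270 and 12440, 11670 and 14730 CPM (-0.43, adjusted p = 0.0094). The MT-CO3 call was lost without STM2457 replicate 1 or 2 (adjusted p = 0.0541 and 0.0806). MT-CO2 went the other way, from 7843, 6204 and 6673 to 9825, 9259 and 11330 CPM (edgeR log2 change 0.52 with SE 0.12, adjusted p = 0.00303), and the STM2457 libraries lay above all DMSO libraries.

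The 4 mRNAs called lower in SK-N-BE2 were all among the 6 whose annotated frames end inside the stop codon. None of the 7 annotated with a whole stop codon was called lower with all libraries. Of those 7, MT-ATP6 shares the last base of its stop codon with MT-CO3 (chrM:9207). The pattern was noticed in the data and carries no test. MT-ND4 (-0.28, adjusted p = 0.144) and MT-CYB (-0.20, adjusted p = 0.262), of the same 6, were not called. The order was not particular to SK-N-BE2. The same 4 had the smallest NGP rises, 0.55 (MT-ND1), 0.58 (MT-ND3), 0.91 (MT-ND2) and 0.95 (MT-CO3), and the next was 1.1 (MT-ND6). In SK-N-BE2 the adjoining MT-CO1 (0.30, adjusted p = 0.108) and MT-CO2 had the highest values of the 13. The control libraries spread widely: MT-ND4 had 17480, 11330 and 13690 CPM with DMSO and 11180, 10970 and 13800 CPM with STM2457, which overlap. Without DMSO replicate 2, in which the median mitochondrially encoded mRNA lay -0.24 from the mean of the DMSO libraries, 7 of 13 were called lower, beside 3841 of 14217 genes tested. That is more than the 6 whose frames end inside the stop codon, so the pattern did not hold in that run.

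**Figure D2:**
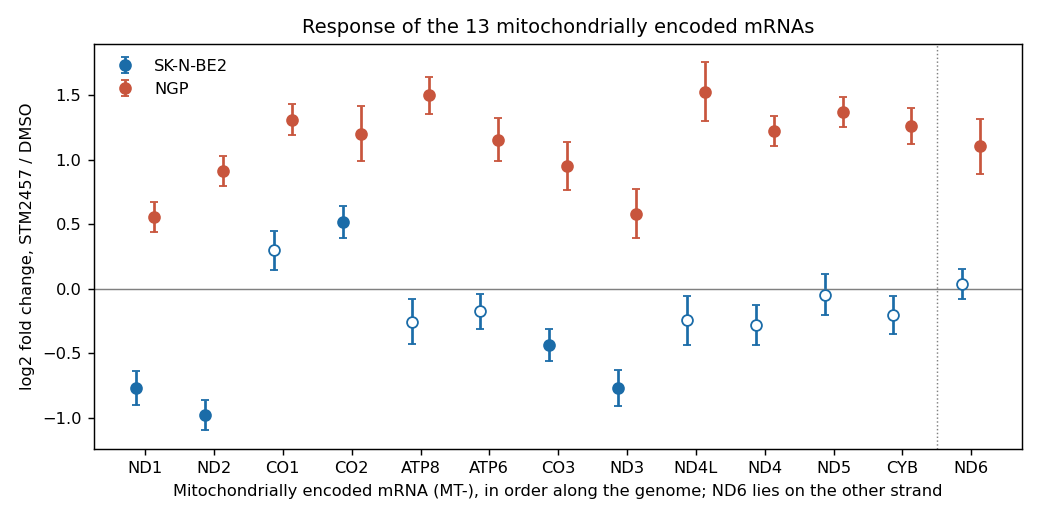
Log2 fold change of STM2457 over DMSO for the 13 mitochondrially encoded mRNAs in SK-N-BE2 and NGP, in genome order with MT-ND6 of the other strand last; bars are standard errors, filled points were called (adjusted p under 0.05) and open points were not. All NGP points lie between 0.55 and 1.53, while SK-N-BE2 points run from -0.98 for MT-ND2 to 0.52 for MT-CO2.

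The response differed between the lines for 12 of the 13. In the contrast of SK-N-BE2 minus NGP over all 12 libraries, the 12 were called lower in SK-N-BE2, with log2 differences from -1.88 (MT-ND2, adjusted p = 3.05e-06) to -0.998 (MT-CO1, adjusted p = 0.00261). Over the 14731 genes tested 30.9% were called in this contrast, 17% higher and 13.9% lower. MT-CO2 was not called (-0.67, adjusted p = 0.0685); without NGP DMSO replicate 1 all 13 were called lower, beside 20.4% of genes tested. MT-ATP8 (-1.74) and MT-ND4L (-1.76) were among the largest differences; they are the shortest of the 13, and MT-ND4L in NGP DMSO replicate 1 was at 286 CPM against 565 and 507 in the other controls.

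Nuclear subunits had medians nearer to 0, below it in SK-N-BE2 and above it in NGP. In SK-N-BE2, 6 of 81 tested were called higher and 29 lower, with a median log2 fold change of -0.17. In NGP, 14 of 82 were called higher and 1 lower, with a median of 0.13. In SK-N-BE2 the higher calls were a smaller share of the members than the 26.9% over all genes tested, and the lower calls a somewhat larger share than the 27.8%. In NGP the higher calls were near the 19.4%, and the lower calls a smaller share than the 22.2%. The NGP count depended on single libraries: without DMSO replicate 1, 50 of 82 were called higher and 2 lower, with a median of 0.38, beside 27.6% of genes tested called higher. The 14 were all among those 50. That library was set apart by the level of these members, so the larger count is no independent support for a rise. Without DMSO replicate 2 or 3, or STM2457 replicate 1 or 3, the members called higher were 9, 6, 7 and 8. Over all genes tested the counts were 2438 of 13779, 1974 of 13795, 1759 of 13781 and 1828 of 13794, against 2644 of 13610 with all libraries. In SK-N-BE2 the STM2457 libraries lay below all DMSO libraries for 24 of 81 and above for 8 (29% and 33.2% of genes tested). In NGP they lay above for 17 of 82 and below for 5 (28.4% and 26.2% of genes tested). Without SK-N-BE2 DMSO replicate 2, 13 were called higher in SK-N-BE2, beside 3806 of 14217 genes tested. With the length trend of each library removed, the count called higher was 15 for SK-N-BE2 and 31 for NGP, beside 4018 of 14013 and 3239 of 13610 genes tested. The median exon length was 2475 bases for these members, 784 for the mitochondrially encoded ones and 5278 for all genes tested in both lines.

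Some SK-N-BE2 calls depended on the fit. In a joint fit of all 12 libraries, 15 nuclear members were called lower there, beside 3032 of 14731 genes tested. SDHC, COX8A, NDUFA4, NDUFS7, NDUFS8, UQCR10, UQCRH, COX7C and ATP5F1D lost their calls, as did MT-CO3 (edgeR adjusted p = 0.0564 to 0.146). MT-CO3 and UQCRH also lost theirs with the length trend removed (0.136 and 0.101), UQCR10 under upper-quartile scaling (0.0652), and ATP5F1D with DESeq2 or a robust dispersion (0.11 and 0.115). In NGP, NDUFA4 and COX7B lost theirs with the GC trend removed (0.0712 and 0.0567).

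**Figure D3:**
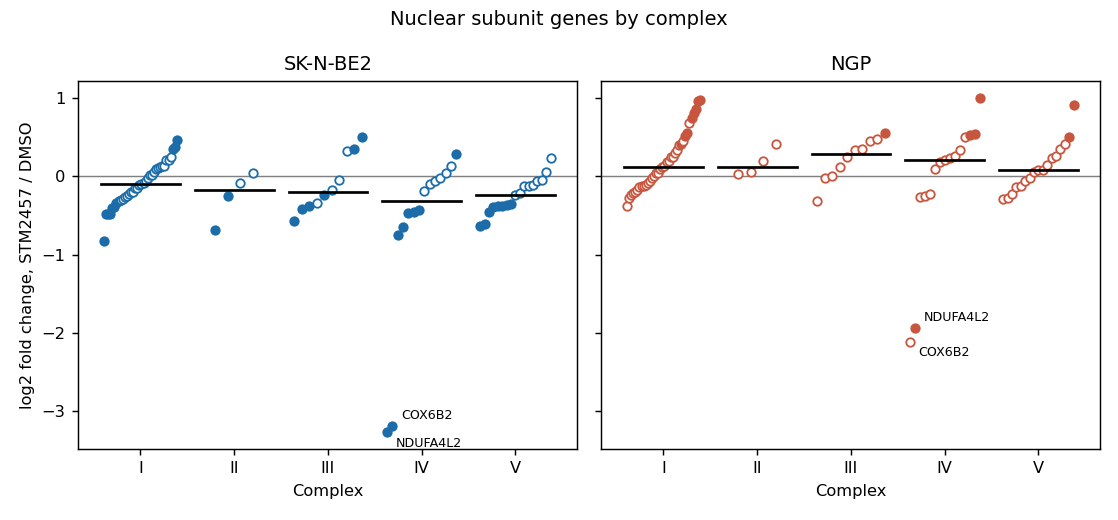
Log2 fold change of STM2457 over DMSO for the nuclear subunit genes tested, sorted within each complex, in SK-N-BE2 (left) and NGP (right); filled points were called, open points were not, and the line is the median of the complex. Medians lie between -0.31 (complex IV) and -0.10 (complex I) in SK-N-BE2 and between 0.08 (complex V) and 0.29 (complex III) in NGP, with NDUFA4L2 and COX6B2 far below.

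**Figure D4:**
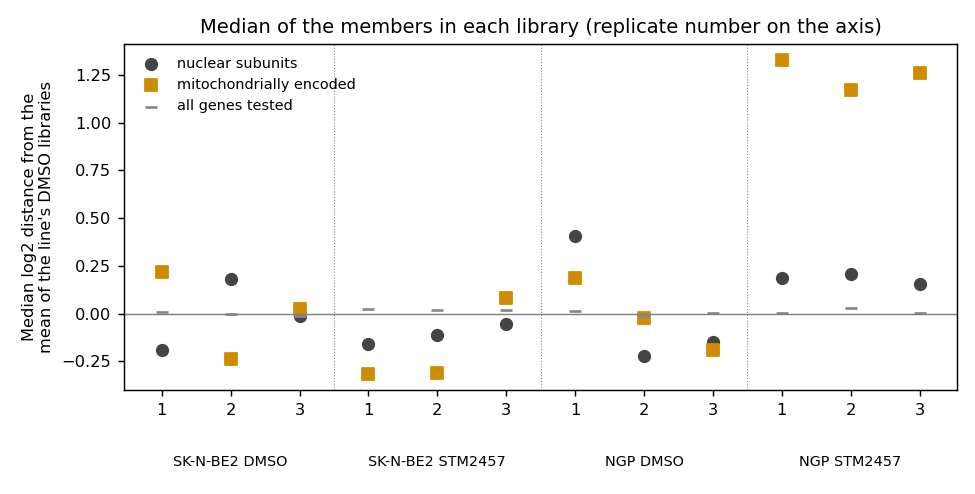
Median distance of the members in each library from the mean of the DMSO libraries of the same line, on the log2(CPM + 1) scale. Nuclear subunits of NGP DMSO replicate 1 lie at 0.41 and those of the NGP STM2457 libraries at 0.15 to 0.21, while the mitochondrially encoded mRNAs of the NGP STM2457 libraries lie at 1.17 to 1.33; medians of all genes tested stay near 0.

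Of the 81 nuclear subunits tested in both lines, 3 were called higher in both (NDUFS5, UQCR10 and NDUFA4) and 1 lower in both (NDUFA4L2), 28 were called lower in SK-N-BE2 only, 11 higher in NGP only and 3 higher in SK-N-BE2 only. These counts are not a test of the difference. In that test 17 of 82 were called lower in SK-N-BE2 than in NGP and 2 higher (NDUFS1 and UQCR11), beside 13.9% and 17% of genes tested, with a median of -0.36. Without NGP DMSO replicate 1 the counts were 57 and 2, beside 20.4% of genes tested called lower. Leaving out any other library gave 7 to 26 lower and 1 or 2 higher, beside 1662 to 2021 of all genes tested called lower. Of the 82, 71 had a negative difference, as did 7204 of the 14731 genes tested.

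In complex I, 3 of 36 nuclear subunits were called higher and 8 lower in SK-N-BE2, and 8 higher and 0 lower in NGP, where SK-N-BE2 had 26.9% and 27.8% of genes tested called higher and lower, and NGP 19.4% and 22.2%, also for the complexes that follow. In NGP 22 of 36 were called higher without DMSO replicate 1, beside 27.6% of genes tested in that fit. NDUFS1, the iron-sulphur subunit of the NADH-oxidising arm, went from 151, 126 and 125 CPM in the DMSO libraries to 186, 199 and 185 CPM in the STM2457 libraries in SK-N-BE2 (edgeR log2 change 0.47 with SE 0.09, adjusted p = 0.00063). In NGP it had 161, 205 and 199 CPM with DMSO and 202, 189.9 and 201 CPM with STM2457 (0.05, adjusted p = 0.773), groups that overlap. NDUFS5, an accessory subunit, rose in both lines, from 104, 139.7 and 117 to 148, 164 and 169.6 CPM in SK-N-BE2 (0.38, adjusted p = 0.00918) and from 119, 75.2 and 76.2 to 185, 167 and 184 CPM in NGP (0.96, adjusted p = 0.00296). The accessory subunit NDUFA5 rose in SK-N-BE2 by 0.35 (adjusted p = 0.00277). In NGP it was called higher without DMSO replicate 1 (0.24, adjusted p = 0.0141) but not with it (0.19, adjusted p = 0.144). NDUFB10, of the membrane arm, fell in SK-N-BE2 from 86.8, 105 and 133 to 65.1, 59.1 and 63.5 CPM (edgeR log2 change -0.83 with SE 0.13, adjusted p = 0.000102). NDUFS7 and NDUFS8, core subunits that carry the iron-sulphur clusters leading to coenzyme Q, were called lower in SK-N-BE2, with log2 fold changes of -0.48 (adjusted p = 0.00378) and -0.49 (adjusted p = 0.00078). Exons of NDUFS7 share 51.4% of their length with genes outside the counted set, so its reads are uncertain.

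NGP rises in complex I were led by small accessory subunits. NDUFA1, an X-linked membrane subunit, went from 29.6, 18.6 and 17.4 CPM in the DMSO libraries to 48.9, 39.4 and 42.5 CPM in the STM2457 libraries (edgeR log2 change 0.97 with SE 0.20, adjusted p = 0.00575), and in SK-N-BE2 it had 54.9, 74.7 and 56.5 CPM with DMSO and 69, 66 and 70.2 CPM with STM2457 (0.10, adjusted p = 0.457). NDUFB4 went from 46.7, 36.4 and 42.6 to 73.5, 89 and 69.7 CPM in NGP (edgeR log2 change 0.86 with SE 0.14, adjusted p = 0.00144) and had 52.2, 63.2 and 74.5 and 50.6, 52.8 and 60 CPM in SK-N-BE2 (-0.25, adjusted p = 0.0876). Its difference between the lines, -1.1 ± 0.20 (SE, adjusted p = 0.000843), followed NDUFA4L2 as the largest called among the nuclear members. NDUFS5 and NDUFB4 each have several processed pseudogenes (6 and 11 named after them in GENCODE 44), so multi-mapping reads may be missing from their counts. NDUFA7 was low throughout, at 0.441 to 0.647 CPM in the group means, and 32.5% of its exon length lies in other counted genes.

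Complex II, succinate dehydrogenase, has no mitochondrially encoded subunit and also works in the tricarboxylic acid cycle. SDHD, a membrane anchor, fell in SK-N-BE2 from 67.4, 89 and 76.5 CPM in the DMSO libraries to 48.1, 50.6 and 49.8 CPM in the STM2457 libraries (edgeR log2 change -0.69 with SE 0.10, adjusted p = 8.22e-05). In NGP it had 22.7, 22.8 and 22 CPM with DMSO and 25, 27.5 and 26.1 CPM with STM2457 (0.19, adjusted p = 0.166), a small separation that was not called, and the difference between the lines was -0.87 (adjusted p = 0.000433). SDHC, the other anchor, was called lower in SK-N-BE2 (-0.26, adjusted p = 0.0227) but not without DMSO replicate 1 or STM2457 replicate 1 or 3 (adjusted p = 0.0576, 0.109 and 0.0933). The catalytic subunits were not called in either line with all libraries: the SK-N-BE2 and NGP log2 fold changes were 0.05 and 0.41 for SDHA, and -0.09 and 0.03 for SDHB (adjusted p = 0.757, 0.124, 0.428 and 0.888). Without NGP DMSO replicate 1, SDHA was called higher in NGP (0.66, adjusted p = 0.00105). SDHA had 9.29 to 16.7 CPM across the 12 libraries and SDHB had 56 to 89.2 CPM. Exons of SDHA share 21.6% of their length with another counted record, those of SDHD 11.4% and those of SDHC 5.47%. Reads in shared stretches were not counted, so the SDHA level is that of the rest of the gene. Named after SDHD are 6 processed pseudogenes.

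In complex III, 2 of 10 nuclear subunits were called higher and 4 lower in SK-N-BE2, and 1 higher and 0 lower in NGP. In NGP 7 of 10 were called higher without DMSO replicate 1, with a median of 0.53, beside 27.6% of genes tested called higher. CYC1, cytochrome c1, fell in SK-N-BE2 from 133, 129 and 156 CPM in the DMSO libraries to 102, 90 and 95.7 CPM in the STM2457 libraries (edgeR log2 change -0.58 with SE 0.09, adjusted p = 0.000149). UQCRC2, a core protein, and UQCRH, the hinge protein, were called lower there (-0.42, adjusted p = 0.00072, and -0.38, adjusted p = 0.0111). UQCRH was called higher in NGP without DMSO replicate 1 (0.62, adjusted p = 4e-05), against 0.33, adjusted p = 0.202 with it. The small subunits UQCR10 and UQCR11 moved the other way: UQCR11 went from 11.6, 16.1 and 14.5 to 20.3, 19.1 and 21.9 CPM (edgeR log2 change 0.50 with SE 0.13, adjusted p = 0.00405) and UQCR10 rose by 0.35 (adjusted p = 0.0321). In NGP, UQCR11 had 44.2, 30.1 and 33.8 CPM with DMSO and 29.8, 29 and 29.3 CPM with STM2457 (-0.32, adjusted p = 0.116), lower in every treated library though not called, and its difference between the lines was 0.83 ± 0.20 (SE, adjusted p = 0.00718). UQCR10 was called higher in NGP too (0.55, adjusted p = 0.0386). The UQCR10 calls rested on single libraries: in SK-N-BE2 the call was lost without DMSO replicate 1 or 3 or any STM2457 library (adjusted p = 0.0522 to 0.107), and in NGP without any library other than DMSO replicate 1 (0.0681 to 0.134). CYC1 in NGP (-0.02, adjusted p = 0.925) became a call of 0.32 with the GC trend of each library removed (adjusted p = 0.0169). UQCR11 shares 11% of its exon length with another counted record and UQCR10 24.5% with a gene outside the counted set.

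Complex IV held the largest nuclear falls. NDUFA4L2, a paralogue of NDUFA4 that is known as a target of hypoxia-inducible factor, fell in both lines. In SK-N-BE2 it went from 8.62, 7.83 and 10.5 CPM in the DMSO libraries to 0.776, 0.996 and 1.1 CPM in the STM2457 libraries (edgeR log2 change -3.26 with SE 0.19, adjusted p = 2.63e-08), and in NGP from 6.49, 5.55 and 5.87 to 1.32, 1.97 and 1.46 CPM (edgeR log2 change -1.94 with SE 0.21, adjusted p = 0.000196). Treated and control libraries did not overlap in either line, and the fall was larger in SK-N-BE2 (difference -1.31 ± 0.29, SE, adjusted p = 0.00328). NDUFA4 itself went from 133, 180 and 140.5 to 189, 184 and 194 CPM in SK-N-BE2 (0.28, adjusted p = 0.039) and from 157, 119 and 117 to 204, 172 and 201 CPM in NGP (0.53, adjusted p = 0.0146). The NDUFA4 rise was called less firmly: in SK-N-BE2 it was lost without any single library other than DMSO replicate 2 (adjusted p = 0.0726 to 0.135) and under upper-quartile scaling (0.0783), and in NGP without DMSO replicate 3 or STM2457 replicate 1 or 3 (0.059 to 0.0671).

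Of the 14 nuclear complex IV subunits tested in SK-N-BE2, 1 was called higher and 7 lower. Of the 15 tested in NGP, 3 were called higher and 1 lower. Without NGP DMSO replicate 1 the NGP counts were 9 and 1, beside 3805 and 4092 of 13776 genes tested. COX5B, a zinc-binding subunit, fell in SK-N-BE2 from 115, 141 and 166 CPM in the DMSO libraries to 90.3, 77.7 and 89.2 CPM in the STM2457 libraries (edgeR log2 change -0.75 with SE 0.12, adjusted p = 0.000149), and in NGP its groups overlapped at 150.5, 78.7 and 100.2 and 82.7, 113 and 82.5 CPM. COX7A2L, a COX7A-related protein known to help join complexes III and IV into supercomplexes, fell in SK-N-BE2 from 209, 295 and 219.9 to 159.5, 158 and 159 CPM (-0.64, adjusted p = 0.000418). In NGP it had 232, 178 and 187 and 176, 166 and 176 CPM (-0.23, adjusted p = 0.141). COX7C was called lower in SK-N-BE2 (-0.47, adjusted p = 0.00213). In NGP it was not called with all libraries, and was called higher without DMSO replicate 1 (0.50, adjusted p = 0.000645). COX6C rose in NGP from 61.5, 33 and 36.5 to 96, 83 and 87.6 CPM (edgeR log2 change 1.001 with SE 0.22, adjusted p = 0.00691), and its SK-N-BE2 response was 0.13 (adjusted p = 0.23). COX7B was called higher in NGP (0.54, adjusted p = 0.0362), a call lost without any single library other than DMSO replicate 1 (adjusted p = 0.0554 to 0.127). COX6C has 17 processed pseudogenes named after it and COX5B 6.

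Isoform choice in complex IV was that of the common forms. COX4I1 had 349.7 and 296 CPM in the DMSO means of SK-N-BE2 and NGP, and the lung and hypoxia-linked isoform COX4I2 had 0.0495 and 0.309 CPM. The ubiquitous COX6A1, COX6B1, COX7A2 and COX8A were present in every library at 41.0 CPM or more, and COX4I1, COX6A1, COX6B1 and COX7A2 were not called in either line with all libraries. Without NGP DMSO replicate 1 each was called higher in NGP, COX4I1 at 0.48, adjusted p = 0.000978, COX6A1 at 0.53, adjusted p = 0.000686, COX6B1 at 0.83, adjusted p = 0.000109 and COX7A2 at 0.61, adjusted p = 0.000328 in edgeR. COX8A was called lower in SK-N-BE2 (-0.43, adjusted p = 0.00413), and higher in NGP without DMSO replicate 1 (0.54, adjusted p = 0.000155, against 0.26, adjusted p = 0.304 with it). Its exons share 35.4% of their length with another counted record. The muscle forms COX6A2 and COX7A1 and the testis-linked COX8C and COX7B2 had means under 0.1 CPM in every group, and COX8C had no read in any library. COX6B2, the testis form, was also low: its SK-N-BE2 libraries had 0.262, 0.241 and 0.229 CPM with DMSO and 0, 0 and 0.0761 CPM with STM2457 (edgeR log2 change -3.19 with SE 0.90, adjusted p = 0.00836), a fitted value that rests on very few reads and is no bound. Its NGP libraries had 1.07, 0.509 and 0.797 and 0, 0.171 and 0.375 CPM (-2.11, adjusted p = 0.0528), and 29.1% of its exon length lies in another counted record.

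In ATP synthase, 0 of 17 nuclear subunits tested were called higher and 8 lower in SK-N-BE2, and 2 higher and 0 lower in NGP. In NGP 11 of 17 were called higher and 1 lower without DMSO replicate 1, beside 27.6% of genes tested called higher. The c-ring subunit is made from 3 genes that encode the same mature protein. ATP5MC1 rose in NGP from 135, 87.4 and 93.4 CPM in the DMSO libraries to 206, 190.4 and 207 CPM in the STM2457 libraries (edgeR log2 change 0.91 with SE 0.16, adjusted p = 0.0025), and its SK-N-BE2 libraries had 79.5, 109.9 and 86.1 CPM with DMSO and 110.1, 111 and 111 CPM with STM2457 (0.23, adjusted p = 0.0904). ATP5MC3 went from 171, 126 and 138 to 210, 206 and 207 CPM in NGP (0.49, adjusted p = 0.0116), a call lost without DMSO replicate 3 or STM2457 replicate 1 (adjusted p = 0.0524 and 0.0523), and had -0.07 in SK-N-BE2 (adjusted p = 0.596). ATP5MC2 had 340.3, 234 and 235 and 275, 245 and 270.3 CPM in NGP and fell in SK-N-BE2 from 296, 414 and 323 to 265, 253 and 258 CPM (edgeR log2 change -0.45 with SE 0.11, adjusted p = 0.00412). ATP5MC2 was the called gene of the ring in SK-N-BE2, and ATP5MC1 and ATP5MC3 in NGP. ATP5PO, in the peripheral stalk, and ATP5F1D, in the central stalk, were called lower in SK-N-BE2 (-0.61, adjusted p = 0.000874, and -0.63, adjusted p = 0.0133). The ATP5F1D groups overlapped, and its call was lost without DMSO replicate 3 or STM2457 replicate 2 or 3 (adjusted p = 0.092, 0.0735 and 0.0505). ATP5PO shares 15.5% of its exon length with another counted record; in NGP it had -0.12 (adjusted p = 0.715), and 0.25 without DMSO replicate 1, where it was called (adjusted p = 0.0326).

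**Figure D5:**
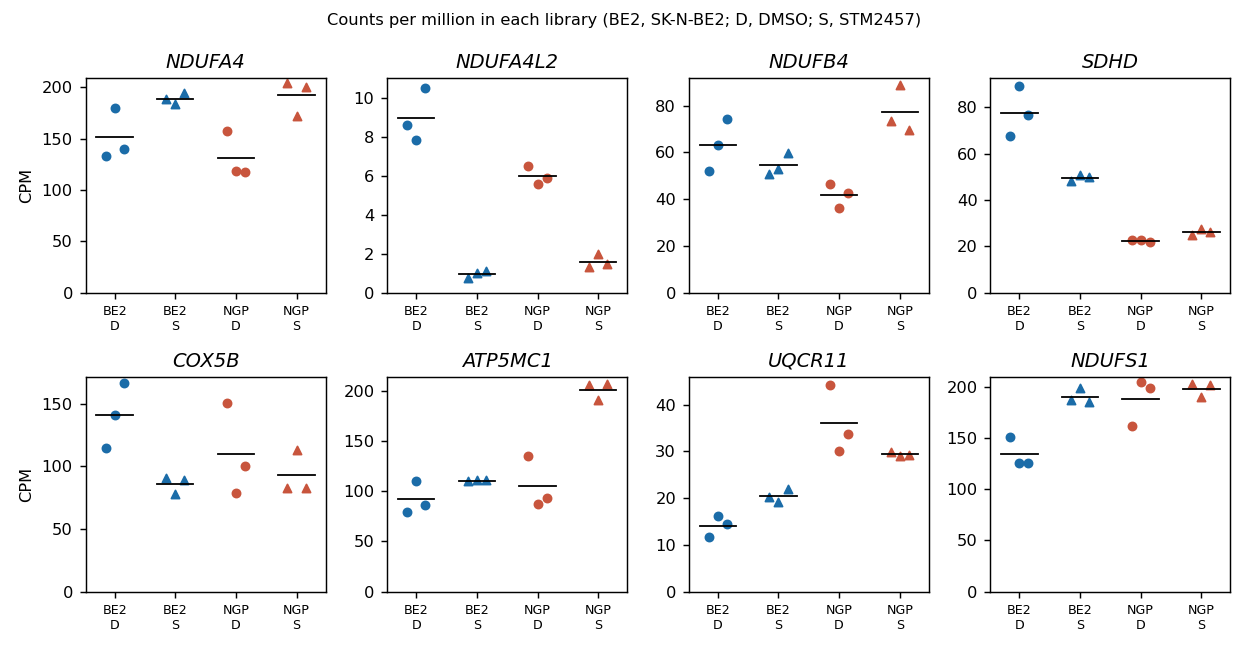
TMM-scaled CPM in each library for 8 nuclear subunits; circles are DMSO and triangles STM2457 libraries, BE2 stands for SK-N-BE2, and the line is the mean of 3 replicates. NDUFA4L2 falls in both lines without overlap, NDUFB4 and ATP5MC1 are higher with STM2457 in NGP, and SDHD and COX5B are lower with STM2457 in SK-N-BE2.

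Levels per kilobase of exon set the mitochondrially encoded mRNAs far above the nuclear ones in all groups. Length here was that of all annotated exons of a gene, 2238 bases for ATP5F1B and 10908 for ATP5F1A, and not that of the transcript expressed. Ranks among nuclear subunits, and the size of the gap to the mitochondrially encoded mRNAs, depend on it. With DMSO, the median SK-N-BE2 level was 9736 CPM per kb for the mitochondrially encoded mRNAs and 30.0 for the nuclear subunits, and the NGP medians were 2095 and 23.5. MT-CO3 had the highest mean per kb in both lines, 21720 ± 1672 in SK-N-BE2 and 7732 ± 2292 in NGP (SD, n = 3 each); in NGP it did not clear MT-CO2 (5787 ± 1991) beyond their spread. In SK-N-BE2 the next 6 (MT-ND2, MT-CO1, MT-ND1, MT-ND4, MT-CO2 and MT-ATP6) lay between 9736 and 10780 CPM per kb and did not differ beyond their spread. Among nuclear subunits ATP5F1B, the catalytic beta subunit of ATP synthase, was highest with DMSO in both lines, 460 ± 45.9 and 624 ± 80.5 CPM per kb, and UQCRH was next at 256 ± 44.3 and 174 ± 55.6. UQCRH did not differ beyond the spread from COX8A and NDUFS5 in SK-N-BE2 (238 ± 35.2 and 219.7 ± 32.6) or from NDUFS5 in NGP (164 ± 45.4). ATP5F1B itself was called lower in SK-N-BE2 (-0.39, adjusted p = 0.00376), and in NGP without DMSO replicate 1 (-0.18, adjusted p = 0.0268, against -0.29, adjusted p = 0.064 with it).

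Other genes of the pathway, listed by function, gave mixed calls. For these lists and all that follow, 26.9% of genes tested were called higher and 27.8% lower in SK-N-BE2. In NGP the shares were 19.4% and 22.2%. The list counts carry no test against these shares. Unlike the subunits, the listed genes were not followed in the alternative fits or with a library left out. Of 16 complex I assembly factors, 5 were called higher and 5 lower in SK-N-BE2, against 0 and 2 in NGP. Of 23 complex IV assembly factors, SK-N-BE2 had 2 higher and 8 lower and NGP 2 and 5. The shorter lists had few calls: 1 higher and 1 lower of 4 for complex II, 0 and 2 of 6 for complex III and 0 and 3 of 6 for ATP synthase in SK-N-BE2. NGP had 0 higher in these 3 lists and 1, 0 and 1 lower. SURF1, a complex IV assembly factor, fell in SK-N-BE2 from 38.6, 49.8 and 41.5 CPM in the DMSO libraries to 18.6, 18.2 and 17.7 CPM in the STM2457 libraries (edgeR log2 change -1.29 with SE 0.11, adjusted p = 5.74e-07) and had 47.4, 25.6 and 33.8 and 31, 30.7 and 30.8 CPM in NGP. NDUFAF3, a complex I assembly factor, was called lower in SK-N-BE2, with a log2 fold change of -1.21 (adjusted p = 8.17e-06). COX19, a copper-related complex IV factor, was called lower in both (-0.70, adjusted p = 6.27e-05, and -0.85, adjusted p = 0.001). Of 15 coenzyme Q and electron carrier genes, 4 were called higher and 5 lower in SK-N-BE2, and NGP had 2 each way, with COQ2, the prenyltransferase of coenzyme Q synthesis, higher in both (0.90, adjusted p = 1.91e-05, and 0.83, adjusted p = 0.00792).

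Genes that make and process mitochondrial RNA were examined beside the 13 mRNAs. Of 10 mitochondrial transcription genes, 1 was called higher and 3 lower in SK-N-BE2, and 3 higher and 1 lower in NGP. POLRMT, the mitochondrial RNA polymerase, had -0.52, adjusted p = 0.00643 in SK-N-BE2 and -0.33, adjusted p = 0.243 in NGP. TFAM, which packages and activates the genome, was not called in either (0.12, adjusted p = 0.262, and -0.11, adjusted p = 0.475). Of 20 genes for RNA processing, stability and polyadenylation, 4 were called higher and 6 lower in SK-N-BE2 and 5 higher and 1 lower in NGP. PRORP and ELAC2, which cut the tRNAs out of the polycistronic RNA, rose in both lines. PRORP rose from 5.66, 6.04 and 6.63 CPM in the DMSO libraries to 12.1, 13.6 and 12.6 CPM in the STM2457 libraries in NGP (edgeR log2 change 1.04 with SE 0.13, adjusted p = 0.000533), and by 0.51 on the log2 scale in SK-N-BE2 (adjusted p = 0.00706). ELAC2 rose by 0.56 and 0.49 (adjusted p = 9.57e-05 and 0.00602). Of the FASTK-family RNA-binding genes, TBRG4 (FASTKD4) and FASTKD5 rose in NGP (0.74, adjusted p = 0.00178, and 0.58, adjusted p = 0.00355), and their responses differed between the lines (adjusted p = 0.0171 and 0.00272).

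Of 12 genes of mitochondrial DNA replication, 2 were called higher and 6 lower in SK-N-BE2, and NGP had 2 and 1. POLG, the catalytic subunit of the mitochondrial DNA polymerase, rose in both lines (0.55, adjusted p = 7.92e-05, and 0.74, adjusted p = 0.000648). TK2, the mitochondrial thymidine kinase, fell in SK-N-BE2 from 26.2, 28.5 and 26.2 CPM in the DMSO libraries to 9.64, 9.69 and 9.19 CPM in the STM2457 libraries (edgeR log2 change -1.54 with SE 0.10, adjusted p = 5.47e-08) and had 0.05 in NGP (adjusted p = 0.874). Of 11 transcriptional regulators of respiratory genes tested, 2 were called higher and 4 lower in SK-N-BE2, and NGP had 1 and 3. HCFC1 rose in both (0.85, adjusted p = 7.35e-06, and 0.94, adjusted p = 0.000692), GABPB2, a partner of the ETS factor GABPA, fell in both (-0.95, adjusted p = 8.09e-06, and -0.75, adjusted p = 0.0106), and ESRRG rose in SK-N-BE2 (0.96, adjusted p = 3.62e-06). In the tricarboxylic acid cycle, 3 of 13 were called higher and 2 lower in SK-N-BE2 and 2 and 1 of 12 in NGP, with OGDH higher in both (0.71, adjusted p = 2.19e-05, and 0.69, adjusted p = 0.000389). Of 22 import genes tested, 3 were called higher and 6 lower in SK-N-BE2, and NGP had 2 and 8, with TIMM44, which holds the import motor at the inner membrane, lower in both (-1.08, adjusted p = 1.91e-06, and -0.79, adjusted p = 0.00477) and TIMM9, a small chaperone, lower in both (-0.48, adjusted p = 0.00109, and -1.27, adjusted p = 0.000111).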

How the data were processed

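RNA of 12 libraries was sequenced, in 4 groups taken from line and treatment in the sample titles. Poly(A) selection preceded construction of SMART cDNA libraries, per the labels' protocols. The submitters' processing notes name FastQC 0.11.5, Trimmomatic 0.36, HISAT2 2.1.0, Subread 1.5.3 and build GRCh38. Reads were assigned by the authors with featureCounts 2.0.5, per the file headers, to exons grouped by gene name of GENCODE 33 protein-coding genes, without strand, without multi-mapping reads and without reads shared by genes. The deposited values are raw counts of reads, not of pairs, so a fragment can add more than 1. Depth was 47242379 to 58159937 reads per library, with 3 replicates per group.

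The 6 libraries of a line were fitted in R 4.3.3 by edgeR 4.0.16, using its quasi-likelihood test after TMM scaling, with genes kept by filterByExpr at a minimum count of 10 and Benjamini-Hochberg adjustment over all genes tested, and the difference between lines as a contrast of 4 group means. A gene was called at an adjusted p under 0.05. Members and lists were chosen with earlier results of these data known, and some listed markers are not reported here. Named were the 13 mitochondrially encoded mRNAs, SDHA to SDHD and the isoform sets; per line and complex the 3 largest called rises and falls among nuclear members of at least 10 CPM; the 6 largest differences; and up to 3 called genes of at least 5 CPM per list. Genes named in parentheses with a count, and NDUFA7, COX7B2, ATP5F1B and TFAM, were added after their values were seen. Mitochondrial ends, overlaps and copies were read from the GRCh38 reference, with GENCODE 44 for pseudogenes. The fits were tested on simulated data. Alternatives were other scalings, filters, fits and DESeq2 1.42.0, and leaving out each library.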

Additional observations from a re-analysis of the deposited data

Results flagged for a closer look

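The STM2457 response differed between SK-N-BE2 and NGP for 26 of the members named (contrast of SK-N-BE2 minus NGP over 12 libraries, edgeR adjusted p under 0.05, values in log2). In it the cell line cannot be told apart from the dose or the sequencing run. Members were named in part for the size of their called changes, so the count of 26 is not a share of the members. Of all 95 members tested, 29 were called lower and 2 higher (32.6% called). Over all genes tested the shares were 13.9% lower and 17% higher (30.9% called). Among mitochondrially encoded mRNAs the differences were MT-ND2 (-1.88), MT-ND4L (-1.76), MT-ATP8 (-1.74), MT-ND4 (-1.49), MT-CYB (-1.45), MT-ND5 (-1.4), MT-CO3 (-1.37), MT-ND3 (-1.34), MT-ATP6 (-1.32), MT-ND1 (-1.31), MT-ND6 (-1.05) and MT-CO1 (-0.998). All 12 had an STM2457 rise in NGP, and 4 of them (MT-ND1, MT-ND2, MT-ND3 and MT-CO3) were called lower in SK-N-BE2.

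Among nuclear subunits the differences below 0 were NDUFA4L2 (-1.31), NDUFB4 (-1.1), SDHD (-0.87), NDUFA1 (-0.86), COX6C (-0.85), NDUFB10 (-0.82), UQCRH (-0.70), COX8A (-0.67), ATP5MC1 (-0.67), ATP5MC3 (-0.55), CYC1 (-0.55) and UQCRC2 (-0.41). NDUFA4L2 fell in both lines and fell further in SK-N-BE2. NDUFB4, NDUFA1, COX6C, ATP5MC1 and ATP5MC3 were called higher in NGP and not called in SK-N-BE2, whereas SDHD, NDUFB10, UQCRH, COX8A, CYC1 and UQCRC2 were called lower in SK-N-BE2 and not called in NGP. Without NGP DMSO replicate 1, UQCRH (0.62, adjusted p = 4e-05) and COX8A (0.54, adjusted p = 0.000155) were called higher in NGP. The differences above 0 were NDUFS1 (0.43) and UQCR11 (0.83).

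Several of these calls were lost when 1 library was left out. For NDUFS1 this held for each library other than SK-N-BE2 DMSO replicate 1 and NGP DMSO replicate 1 (adjusted p = 0.0583 to 0.111), and for COX8A and UQCRH likewise (0.0574 to 0.107 and 0.0507 to 0.105). For ATP5MC1 it held for SK-N-BE2 DMSO replicate 2 and all SK-N-BE2 STM2457 libraries, and for NGP DMSO replicates 2 and 3 and NGP STM2457 replicates 1 and 3 (0.0523 to 0.0698). For NDUFB10 it held for SK-N-BE2 DMSO replicate 3, SK-N-BE2 STM2457 replicates 2 and 3, NGP DMSO replicates 2 and 3 and NGP STM2457 replicate 2 (0.053 to 0.0748). CYC1 lost its call without SK-N-BE2 STM2457 replicate 2 or 3 or NGP STM2457 replicate 2 (0.053 to 0.0668) and with the replicate block (0.0587), and NDUFS1 lost its call with the block (0.0679) and under upper-quartile scaling (0.0694). ATP5MC3 and COX6C lost theirs without SK-N-BE2 STM2457 replicate 1 or NGP DMSO replicate 3 (0.0552 and 0.0528 for ATP5MC3, 0.0505 and 0.0518 for COX6C), and NDUFA1 without NGP STM2457 replicate 1 (0.0512).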

How the results depend on the processing

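The median log2 fold changes of nuclear and mitochondrially encoded members moved by less than the spread between replicates in every alternative run. So did the read-share ratios. For NGP nuclear members that spread includes DMSO replicate 1, which widens it, so it is a weak yardstick for leaving that library out. The NGP nuclear median went from 0.13 to 0.38 without it. Without 1 library the SK-N-BE2 medians ranged from -0.22 to -0.05 (nuclear) and -0.41 to -0.06 (mitochondrial), the NGP medians from 0.06 to 0.38 (without DMSO replicate 1) and 1.06 to 1.36. SK-N-BE2 share ratios ranged from 0.839 to 0.974 (mitochondrial) and 0.857 to 0.956 (nuclear), those of NGP from 2.04 to 2.34 and 0.998 to 1.16.

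Counts of calls depended more on the settings, and the cause was not tested. In SK-N-BE2 nuclear members called higher were 15 with the length trend removed, beside 4018 of 14013 genes tested. With a minimum absolute log2 fold change of 0.5 there was 1. Nuclear members called lower there were 15 in the joint fit of all libraries, beside 3032 of 14731 genes tested, and 9 with that minimum. Calls over all genes were not counted under the minimum. Mitochondrially encoded members called higher were 2 with DESeq2 and 2 with the length trend removed, beside 3827 of 17017 and 4018 of 14013 genes tested. In NGP nuclear members called higher were 31 with the length trend removed, beside 3239 of 13610 genes tested. Nuclear members called lower there were 2 with DESeq2, 3 in the joint fit, 4 with the length trend and 4 with the GC trend removed, and 2 with counts halved. Over all genes tested the lower calls were, in that order, 3213 of 16664, 3388 of 14731, 3336 of 13610, 3433 of 13610 and 2986 of 13013. For the difference, nuclear members called higher were 1 under upper-quartile scaling, beside 2176 of 14731 genes tested, and 1 with the minimum.

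Without 1 library, SK-N-BE2 gave 4 to 13 nuclear members higher (13 without DMSO replicate 2) and 22 to 40 lower, and 1 to 2 mitochondrially encoded higher (2 without DMSO replicate 1) and 3 to 7 lower (7 without DMSO replicate 2). Over all genes tested 3203 to 3895 were called higher and 3285 to 3954 lower in these SK-N-BE2 runs. NGP gave 6 to 50 nuclear members higher (50 without DMSO replicate 1, 9 and 6 without DMSO replicates 2 and 3, 7 and 8 without STM2457 replicates 1 and 3) and 1 to 5 lower (5 without DMSO replicate 2, 2 without DMSO replicate 1 or STM2457 replicate 3). It gave 12 to 13 mitochondrially encoded members higher, beside 1759 to 3805 of all genes tested called higher and 2057 to 4092 called lower. The difference gave 1 to 2 nuclear members higher (2 without DMSO replicate 1 of either line, 1 otherwise) and 7 to 57 lower (57 without NGP DMSO replicate 1, 26 without SK-N-BE2 DMSO replicate 1, 7 without NGP DMSO replicate 3, and 8 to 10 without each of the others apart from SK-N-BE2 DMSO replicate 3), and 12 to 13 mitochondrially encoded lower. Over all genes tested the difference gave 2039 to 3229 called higher and 1662 to 3045 called lower. CYC1 in NGP was 0.32 with the GC trend removed, and ATP5PO in NGP from -0.30 to 0.25 without 1 library (0.25 without DMSO replicate 1), both against values below 0.

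Replicate numbers did not pair the libraries: same-numbered DMSO and STM2457 libraries correlated at -0.17, 0.14 and 0.03 (SK-N-BE2) or 0.0003, -0.23 and 0.11 (NGP). With the replicate block 7 nuclear members were called higher and 30 lower in SK-N-BE2, NGP had 16 and 1, and the difference 1 and 21. Over all genes tested these counts were 3720 and 3802 of 14013, 2375 and 2651 of 13610, and 2205 and 1820 of 14731. Low members such as COX6B2 are limited by depth.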

Other observations

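Some genes that serve the complexes were called in both lines with opposite signs. SDHAF1, an assembly factor of succinate dehydrogenase, went from 4.05, 4.51 and 5.85 CPM in the DMSO libraries to 13.8, 9.59 and 11.2 CPM in the STM2457 libraries in SK-N-BE2 and from 34.2, 22 and 24.4 to 13.2, 17.5 and 12.7 CPM in NGP (log2 fold changes 1.23 and -0.92, edgeR adjusted p = 4.55e-05 and 0.00621, difference 2.16, adjusted p = 8.14e-05). TMEM186, a complex I assembly factor, had 0.87 and -0.44 (adjusted p = 6.76e-05 and 0.0499). TFB1M, a methyltransferase of mitochondrial ribosomal RNA, had -0.43 and 0.35 (adjusted p = 0.00229 and 0.0416). These genes were picked for this pattern after their values were seen. They were not followed in the alternative fits or with a library left out, and the TMEM186 call in NGP lay close to the threshold.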
